A study of Mus musculus with 37 samples.

Results

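Inhibitory receptors of T cells and the ligands of PD-1 were followed across 37 implanted mouse pancreatic tumours. The set held 10 of the 39017 genes in the table, taken by symbol: the receptor genes Pdcd1, Ctla4, Lag3, Havcr2, Tigit, Btla and Cd160, the PD-1 ligand genes Cd274 and Pdcd1lg2, and the transcription factor gene Tox. All 10 symbols were found once. Tumour cell clones of pancreatic origin had been placed under the skin of C57BL/6 mice, and RNA of the whole tumour was sequenced 3 weeks later. No treatment was given to any mouse, and no tumour-free or cell-culture control was analysed here. The labels called 15 tumours of 7 clones high in T cells, 15 tumours of 7 clones low, and 4 tumours of 2 clones intermediate, and 3 tumours of 3 further clones carried no such label. The sources used here do not give how the T cell phenotype of a clone was measured, the genotype of the tumour cells or the age of the mice. The study set T cell high against T cell low tumours. Because tumours of 1 clone come from the same implanted cells, the clone was taken as the replicate and its tumours' counts were added up, which left 16 labelled clones. Some clones share the number in front of the letter c in their name, which the labels do not explain.

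PD-1, the product of Pdcd1, is a receptor that activated T cells put on their surface. When it meets PD-L1 (Cd274) or PD-L2 (Pdcd1lg2) on a tumour cell, macrophage or dendritic cell, it recruits a phosphatase that dampens signalling from the T cell receptor. CTLA-4 competes with the activating receptor CD28 for CD80 and CD86 and is carried at high level by regulatory T cells. LAG-3, TIM-3 (Havcr2), TIGIT, BTLA and CD160 are further brakes, with MHC class II, galectin-9 and CEACAM1, the poliovirus receptor and nectins, and HVEM (Tnfrsf14) among their ligands. TOX drives the exhausted state of T cells that see antigen for a long time. Expression of these genes is not limited to T cells: Havcr2 is also made by macrophages and dendritic cells, Btla by B cells, Tigit and Cd160 by NK cells, and Cd274 by many cell types under interferon gamma. In RNA of a whole tumour, fewer cells of a type and less RNA per cell cannot be told apart. Levels were therefore also set against Cd3e, which encodes a chain of the CD3 complex of all T cells.

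On GRCm38 with the GENCODE M21 annotation, Ctla4 (ENSMUSG00000026011) lay at chr1:60887000-60915832 on the plus strand and Pdcd1 (ENSMUSG00000026285) at chr1:94038305-94052553 on the minus strand. The PD-1 ligand genes were neighbours on chromosome 19, with Cd274 (ENSMUSG00000016496) at chr19:29367455-29388095 and Pdcd1lg2 (ENSMUSG00000016498) at chr19:29410919-29471161, both on the plus strand. Tigit (ENSMUSG00000071552, chr16:43648867-43664146, minus) and Btla (ENSMUSG00000052013, chr16:45224315-45257670, plus) shared chromosome 16. The others were Lag3 (ENSMUSG00000030124, chr6:124904361-124911705, minus), Havcr2 (ENSMUSG00000020399, chr11:46454935-46481255, plus), Tox (ENSMUSG00000041272, chr4:6686353-6991557, minus) and Cd160 (ENSMUSG00000038304, chr3:96798763-96829351, minus). Cd160 overlaps Pdzk1 on the other strand, Pdcd1lg2 overlaps A930007I19Rik and Cd274 overlaps AC119228.1. Tox overlaps Gm11802 on the other strand as well, and Ctla4 overlaps Rpl18-ps1 on its own strand. Cd3e overlaps Gm48719 on the other strand and Gm48720 on its own. These overlaps are of whole gene spans, and whether exons are shared was not checked. The sources used here do not give whether reads were counted by strand. Reads in a shared stretch may thus not be told apart from reads of the partner.

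Promoter sequence is shown for the receptor and ligand genes of the PD-1 axis and for Ctla4, the members with the largest differences between clones plus Cd274, the other PD-1 ligand. RefSeq windows of 250 bases before the start that RefSeq gives (GRCm38.p6) held 8 of the 10 members, all but Lag3 and Tox. That start can differ from the GENCODE one, and for Ctla4 it lies inside the longer GENCODE gene given above. The 4 windows run 5′ to 3′ on the strand of the gene, at chr1:94052554-94052803 for Pdcd1, chr1:60908775-60909024 for Ctla4, chr19:29367188-29367437 for Cd274 and chr19:29410669-29410918 for Pdcd1lg2. Capitals mark GAAAC or its reverse complement GTTTC, the half-site of interferon regulatory factors.
Pdcd1: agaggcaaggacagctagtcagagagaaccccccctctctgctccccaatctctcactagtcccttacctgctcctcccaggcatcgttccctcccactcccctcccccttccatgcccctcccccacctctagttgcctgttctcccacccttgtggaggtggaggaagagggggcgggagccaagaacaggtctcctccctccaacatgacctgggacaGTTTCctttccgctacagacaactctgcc
Ctla4: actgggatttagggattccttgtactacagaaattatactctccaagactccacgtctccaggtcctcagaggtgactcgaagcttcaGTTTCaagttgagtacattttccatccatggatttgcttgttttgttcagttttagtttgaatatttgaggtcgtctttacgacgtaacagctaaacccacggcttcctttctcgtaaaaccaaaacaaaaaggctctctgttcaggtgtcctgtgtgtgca
Cd274: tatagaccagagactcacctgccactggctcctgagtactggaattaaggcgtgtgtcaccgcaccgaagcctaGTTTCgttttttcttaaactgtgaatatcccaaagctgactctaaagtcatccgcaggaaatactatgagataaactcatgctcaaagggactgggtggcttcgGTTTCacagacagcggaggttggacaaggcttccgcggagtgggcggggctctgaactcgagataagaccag
Pdcd1lg2: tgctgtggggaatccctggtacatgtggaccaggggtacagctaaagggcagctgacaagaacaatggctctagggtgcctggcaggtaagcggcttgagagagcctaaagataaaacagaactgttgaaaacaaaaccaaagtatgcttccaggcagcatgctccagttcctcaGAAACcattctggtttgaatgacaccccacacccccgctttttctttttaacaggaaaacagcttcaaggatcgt
The half-site lay at -29 to -25 from the RefSeq start in Pdcd1, at -162 to -158 in Ctla4 and at -75 to -71 in Pdcd1lg2. Cd274 held it in 2 places, at -176 to -172 and at -72 to -68. It was found in 6 of the 8 members' windows (also Tigit and Btla) and in 39.7% of the 32851 promoter windows, so its presence is common. The STAT motif TTCNNNGAA, held by 7.02% of all windows, was found in Cd160 alone, and the longer motif of interferon regulatory factors, GAAA repeated after 2 bases and held by 2.98%, in none of the 8. Both strands were searched, and the half-site was added after the longer motifs had been searched. A match is a description of letters and says nothing of binding.

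The 34 labelled libraries held 7.39 to 102.33 M counts (median 31.8 M). They fell into 2 kinds, each holding libraries of all 3 T cell labels. In 17 libraries (7 high, 8 low, 2 intermediate) the genes Myh6, Myh7, Cps1 and Serpina3k, which belong to heart muscle and liver, summed to 257.7 to 5922 CPM (counts per M counts of the library), and in the other 17 (8 high, 7 low, 2 intermediate) to at most 0.538 CPM. Every labelled tumour numbered 1 was of the first kind, with 1 tumour numbered 2 (of bulk_2669c4), so this split cannot be told apart from tumour number. Within the first kind the amount differed between labels. It was 257.7 to 290.2 CPM in intermediate, 1508 to 5894 in low and 282.7 to 5922 in high libraries. The 3 libraries with the least came from clones bulk_6422c5, bulk_7160c2 and bulk_7160c5. When intermediate and low clones are compared over all libraries, label and amount cannot be told apart. The 4 libraries with the most of these transcripts, from high clones bulk_2838c3, bulk_6499c4 and bulk_6555c3 and low clone bulk_6419c5, were nearly alike: their counts differed by a chi-squared of 3.25 to 8.27 per gene between pairs (genes with at least 10 counts), against at least 48.5 between tumours of 1 clone. The comparisons of members are therefore also given for the 17 libraries without such transcripts, called the liver- and heart-free libraries here, which cover 15 clones (low clone bulk_6422c1 has none). Markers of the labelled T cell phenotype were present in every clone. The 20 genes of the T cell list summed to 96.0 to 244.5 CPM in high clones, 69.4 to 106.2 in low clones and 137.7 to 303.9 in intermediate clones, so high and low clones overlapped. Nothing in the labels says whether the tumours of 1 clone came from separate mice, so p-values measure only the spread between these clones, part of which may be technical. With all libraries, the sums of 4 clones each include 1 of the nearly alike libraries, so these clones are not fully independent. The SDs, SEs and p-values of those comparisons do not allow for this.

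Across the 34 labelled tumours, Pdcd1 ran from 0.236 CPM (10 counts) to 6.62 CPM (686 counts) with a median of 0.727, a span of 28.0-fold. Its lowest count in a library was 2. Ctla4 spanned 31.1-fold (0.428 to 13.3 CPM, median 1.51) and Pdcd1lg2 26.2-fold (0.705 to 18.5 CPM, median 2.03). Those spans were close to that of Cd3e, 36.4-fold (0.185 to 6.74 CPM, median 0.841). Havcr2 had the narrowest span of the members, 4.52-fold (3.95 to 17.9 CPM, median 7.01), and Cd274 spanned 8.60-fold (6.99 to 60.1 CPM, median 20.2). Between them lay Tox with 22.5-fold (0.773 to 17.4 CPM, median 7.30), Tigit with 16.1-fold (2.25 to 36.4, median 11.6), Lag3 with 15.7-fold (1.23 to 19.3, median 3.08) and Btla with 12.2-fold (0.333 to 4.07, median 1.17). Cd160 was scarce, at 0.0886 to 0.789 CPM and 1 to 50 counts per library, so its differences carry large counting error. The highest values of Pdcd1, Ctla4 and Pdcd1lg2 all belonged to tumours of intermediate clone bulk_7160c5, and the lowest value of Pdcd1 to 1 of the 4 nearly alike libraries.

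Per kilobase of exon, the median level was highest for Tigit (12.7 CPM per kb), followed by Cd274 (5.59), Havcr2 (2.58) and Lag3 (1.46). Pdcd1lg2 (1.04), Tox (0.959) and Ctla4 (0.650) followed, and Pdcd1 (0.377), Btla (0.345) and Cd160 (0.106) were lowest, against 0.206 for Cd3e. Neighbours in that order were not separated by their spread over tumours, since the range of each member overlapped that of the next. Tigit did not stand first in both kinds of library: its median was 24.8 CPM in the 17 with liver and heart transcripts and 5.64 CPM in the 17 without, where Cd274 (6.62 CPM per kb) was above it (6.13 CPM per kb). A median of every other receptor was also taken in the libraries without these transcripts. It was 1.29 CPM for Pdcd1, 1.57 for Ctla4, 4.66 for Lag3, 8.72 for Havcr2, 1.11 for Btla and 0.272 for Cd160.

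**Figure D1:**
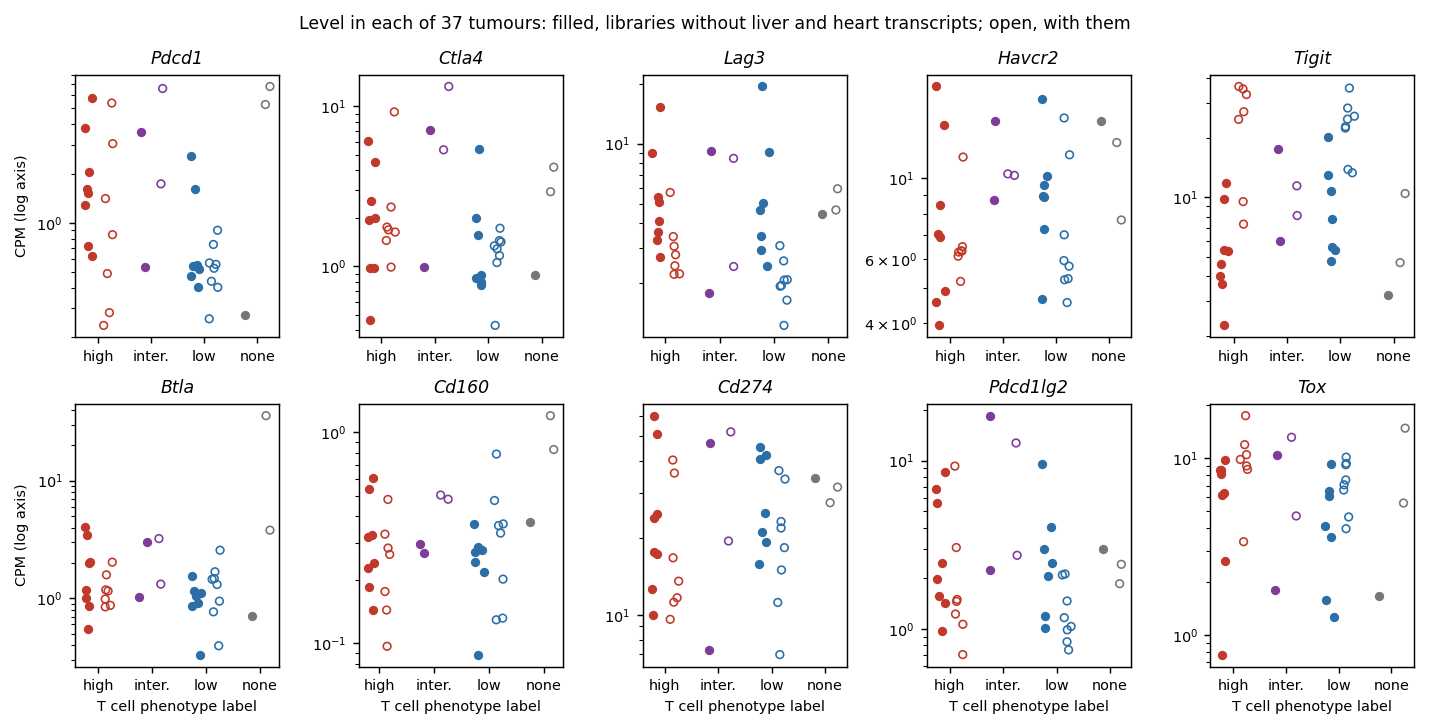
Level of each member in CPM (log axis) in every tumour, grouped by T cell label, with 1 point per tumour; filled points are libraries without liver and heart transcripts and open points libraries with them. Open points of Tigit go up to 36.4 CPM, in tumours of high and low clones, while the highest Btla point, 35.7 CPM, is a tumour with no label.

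Between T cell high and T cell low clones, the largest differences among the members with all libraries were those of Pdcd1 and Ctla4, both on the side of the high clones. Pdcd1 was 0.761, 1.02, 1.03, 1.28, 2.25, 2.47 and 5.15 CPM in the 7 high clones (bulk_6620c1, bulk_6556c4, bulk_6499c4, bulk_6555c3, bulk_2838c3, bulk_6421c2 and bulk_7160c2). In the 7 low clones it was 0.445, 0.526, 0.552, 0.558, 0.587, 0.748 and 1.31 CPM (bulk_6499c3, bulk_6419c5, bulk_6556c3, bulk_6422c1, bulk_6694c2, bulk_6419c1 and bulk_2669c4). All 7 high clones lay above the median of the low clones and 3 lay above every low clone, and the groups overlapped through bulk_2669c4. The means were 1.99 ± 1.54 CPM (SD, n = 7) and 0.676 ± 0.295 CPM (SD, n = 7), and the fitted log2 difference was 1.56 (SE 0.44). With edgeR's quasi-likelihood test this gave an unadjusted p of 0.00256 and, over all genes, an adjusted p of 0.659 (0.0993 to 0.951 over the alternatives), so the difference was not called. With the liver- and heart-free libraries Pdcd1 was 2.04 ± 1.13 CPM in the high clones (SD, n = 7) and 0.738 ± 0.599 CPM in the low clones (SD, n = 6), a log2 difference of 1.45 (SE 0.52, adjusted p = 0.711). Leaving out clone bulk_7160c2 lowered the difference of Pdcd1 to 1.12. Tumours of 1 clone also differed, from 0.236 to 5.81 CPM in high clone bulk_2838c3 and from 0.403 to 2.56 CPM in low clone bulk_2669c4. The liver- and heart-free value of bulk_2838c3 rested on tumours of 0.628 and 5.81 CPM.

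Ctla4 was 1.28 to 8.30 CPM in the high clones (median 1.79) and 1.01 to 2.47 CPM in the low clones (median 1.08). Again all 7 high clones lay above the median of the low clones, 2 of them above every low clone. The log2 difference of Ctla4 was 1.09 (SE 0.41, adjusted p = 0.659 by edgeR) with all libraries and 0.78 (SE 0.51, adjusted p = 0.829) without those holding liver and heart transcripts. Clone bulk_7160c2 carried much of it: without that clone it was 0.51. Cd3e itself was 1.92 ± 1.27 CPM in high clones (SD, n = 7) against 0.769 ± 0.512 CPM in low clones (SD, n = 7), a log2 difference of 1.33 (SE 0.47, adjusted p = 0.659), and 0.72 (SE 0.58) without the liver and heart libraries. The differences of Pdcd1 and Ctla4 thus went with a difference of the same sign in a general T cell gene.

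No member was called between high and low clones by edgeR, and 2 of 10 had an unadjusted p under 0.05, Pdcd1 and Ctla4. Over all 20348 genes the share called was 0.0%, with 1516 at an unadjusted p under 0.05. DESeq2 called 0 members (0.113% of all genes), as did limma-voom (0.0%). In liver- and heart-free libraries 0 of 10 members were called, 2 had an unadjusted p under 0.05, and the share called was 0.0% of 17905 genes. The point estimate was above 0 for 7 of the 10 members, with a median of 0.39 against -0.000129 over all genes tested, and all 10 members passed the filter on low counts.

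Of the PD-1 ligands, Pdcd1lg2 had a point estimate on the side of the high clones and Cd274 one near 0, and neither was called. Pdcd1lg2, which dendritic cells and macrophages make, was 1.21 to 8.90 CPM in high clones (median 1.89) and 0.754 to 4.15 CPM in low clones (median 1.93), a log2 difference of 0.77 (SE 0.48, adjusted p = 0.705 by edgeR) that dropped to 0.28 without clone bulk_7160c2 and to 0.42 (SE 0.56) without the liver and heart libraries. Cd274 was 9.47 to 38.9 CPM in high clones (median 26.4) and 11.7 to 42.4 CPM in low clones (median 20.1). Its means were 23.8 ± 10.9 CPM (SD, n = 7) and 23.9 ± 11.5 CPM (SD, n = 7), a log2 difference of 0.01 (SE 0.36), and the sign changed with the processing, to -0.0781 (SE 0.45) without the liver and heart libraries. The highest low clone for Cd274, bulk_6499c3, was the lowest of the low clones for Pdcd1.

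None of the other receptors, nor Tox, was called, and high and low clones overlapped for each of them. Lag3, whose product binds MHC class II, was 4.69 ± 1.58 CPM in the high against 3.55 ± 2.18 CPM in the low clones (SD, n = 7 each; log2 difference 0.42, SE 0.35), and the difference was 0.11 (SE 0.45) without the liver and heart libraries. Btla, a receptor gene of B cells and T cells, was 1.48 ± 0.543 CPM in the high against 1.16 ± 0.373 CPM in the low clones (SD, n = 7 each; log2 difference 0.36, SE 0.29). Without the liver and heart libraries the difference of Btla was 0.94 (SE 0.43, adjusted p = 0.758 by edgeR), and 4 of 7 high clones lay above all 6 low clones. These are the receptors, after Pdcd1 and Ctla4, with point estimates on the side of the high clones. Havcr2, a receptor gene of T cells and myeloid cells, was 7.40 ± 2.17 CPM in the high against 7.94 ± 2.81 CPM in the low clones (SD, n = 7 each; log2 difference -0.09, SE 0.24; -0.0995, SE 0.30, without the liver and heart libraries). Cd160 was 0.287 ± 0.130 CPM in the high against 0.306 ± 0.129 CPM in the low clones (SD, n = 7 each; log2 difference -0.10, SE 0.34), and its sign turned without those libraries (0.31, SE 0.38). The highest Tigit value, 28.4 CPM, belonged to low clone bulk_6422c1, which has a library with liver and heart transcripts only. Among libraries of that kind high clones bulk_2838c3 (35.2 CPM) and bulk_6499c4 (34.2 CPM) lay above it (29.8 CPM), so the order of clones depended on the kind of library. With all libraries 2 high clones lay below every low clone. Tigit was 13.4 ± 5.55 CPM in the high against 17.7 ± 6.30 CPM in the low clones (SD, n = 7 each), a log2 difference of -0.39 (SE 0.31, adjusted p = 0.765). From liver- and heart-free libraries alone, Tigit was 5.95 ± 3.48 CPM in high (SD, n = 7) and 9.55 ± 6.01 CPM in low clones (SD, n = 6), a difference of -0.68 (SE 0.44, adjusted p = 0.823). Tox was 8.14 ± 4.19 CPM in the high against 5.79 ± 2.10 CPM in the low clones (SD, n = 7 each; log2 difference 0.49, SE 0.38; 0.39, SE 0.57, without the liver and heart libraries). With all libraries it had 3 high clones above every low clone and 1 high clone, bulk_6421c2, below every low clone.

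**Figure D2:**
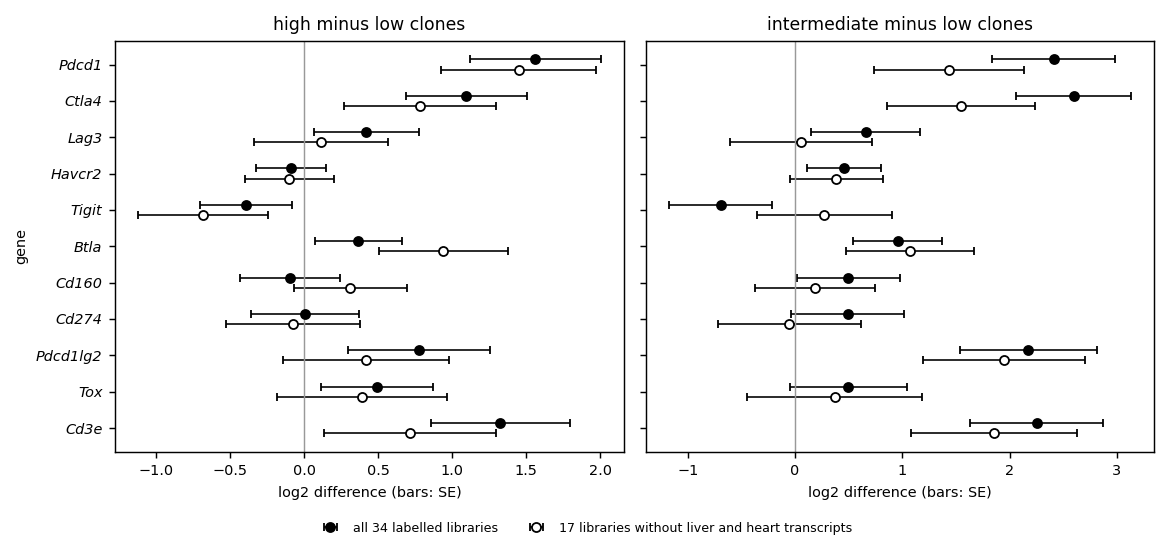
Log2 difference of each member and of Cd3e between high and low clones (left) and between intermediate and low clones (right), with bars of 1 SE; filled points use all 34 labelled libraries and open points the 17 without liver and heart transcripts. Pdcd1 stands at 1.56 and 1.45 on the left, Cd274 near 0, and Tigit below 0 at -0.39 and -0.68.

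The genes around the receptors were measured from lists of ligands, signalling proteins and transcription factors. None of the 21 ligands and partner receptors was called between high and low clones by edgeR, and 0 had an unadjusted p under 0.05 (15 of 21 point estimates above 0, median 0.16). Cd28, the activating receptor that CTLA-4 competes with, had a log2 difference of 0.52 (SE 0.34), and its ligands Cd80 and Cd86 had 0.20 (SE 0.36) and 0.17 (SE 0.27). The TIGIT ligand genes Pvr and Nectin2 (listed as Pvrl2) had -0.10 (SE 0.16) and 0.15 (SE 0.21), and the activating competitor of TIGIT, Cd226, had 0.58 (SE 0.40). Tnfrsf14, which encodes the ligand of BTLA and CD160, had 0.33 (SE 0.30). Among the TIM-3 ligands Lgals9 had 0.02 (SE 0.13) and Ceacam1 0.69 (SE 0.51). None of the 13 signalling genes, 16 transcription factors or 13 interferon gamma pathway genes was called either, with medians of 0.15, 0.26 and 0.27. Without the liver and heart libraries 9 of 20 ligands and partner receptors tested were above 0 (median -0.0286), and the medians of the other 3 lists were 0.0217, 0.12 and 0.15. With all libraries Ifng had 1.12 (SE 0.93), Irf1 0.26 (SE 0.19) and Tcf7, which marks T cells that can renew, 0.19 (SE 0.26).

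Markers of the cells that can carry these receptors were measured beside them. Of the 20 T cell genes, 19 had a point estimate above 0 between high and low clones (median 1.13, 13 at an unadjusted p under 0.05, 0 called by edgeR). Cd8a, of cytotoxic T cells, had 2.16 (SE 0.73) and Cd4, of helper T cells, 0.63 (SE 0.40). All 7 regulatory T cell genes were above 0 (median 0.81), with Foxp3 at 1.35 (SE 0.49). The 10 NK cell genes had a median of 0.36, with Ncr1 at 0.36 (SE 0.61), the 11 macrophage genes 0.34, with Adgre1 (listed as Emr1) at 0.42 (SE 0.31), and the 11 dendritic cell genes 0.78. Without the liver and heart libraries the medians were 0.72 for T cells, 0.44 for regulatory T cells and -0.15 for the 8 NK cell genes tested. Summed over the list, NK cell genes were at 24.0 to 56.9 CPM in high clones against 24.8 to 77.3 CPM in the low, and macrophage genes at 1038 to 1980 CPM and 789 to 1716 CPM. The 7 B cell genes summed to 5.09 to 14.1 CPM in high and 4.11 to 8.19 CPM in low clones. Without the liver and heart libraries macrophage genes summed to 1162 to 1654 CPM in high and 722.7 to 1919 CPM in low clones. Dendritic cell genes there summed to 327.6 to 825.5 CPM in high and 297.2 to 996.2 CPM in low clones. None of the markers on these lists was at 0 in every clone. The part of these cell types in the members' differences was not tested.

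Intermediate clones numbered 2 and differed widely. Clone bulk_7160c5 had 5.92 CPM of Pdcd1, 11.9 of Ctla4 and 14.7 of Pdcd1lg2, each above all 14 high and low clones, and 6.13 CPM of Cd3e. Clone bulk_6422c5 had 1.28 CPM of Pdcd1, 3.72 of Ctla4, 2.58 of Pdcd1lg2 and 1.21 of Cd3e. Its Ctla4 was above every low clone and its Pdcd1 was within the range of the low clones. Against the low clones the log2 difference was 2.60 (SE 0.54) for Ctla4, 2.41 (SE 0.57) for Pdcd1, 2.17 (SE 0.64) for Pdcd1lg2 and 2.25 (SE 0.62) for Cd3e, each with an adjusted p of 0.132 by edgeR. Btla had 0.96 (SE 0.41), and Tigit was the only member below 0, at -0.69 (SE 0.48).

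No member was called between intermediate and low clones by edgeR's quasi-likelihood test (0.0% of all genes). At an unadjusted p under 0.05 there were 4 members and 3261 genes in all. With DESeq2 3 members were called, Ctla4 (adjusted p = 0.00278), Pdcd1 (0.00899) and Pdcd1lg2 (0.0466), beside 4.57% of all genes, and with limma-voom 1, beside 0.699%. Over the alternatives the adjusted p of these 3 ran from 0.00278 to 0.783 for Ctla4, 0.00899 to 0.787 for Pdcd1 and 0.0290 to 0.921 for Pdcd1lg2. With edgeR, 3 members were called once clone bulk_6422c5 or high clone bulk_7160c2 was left out (2.27% and 2.81% of all genes), and without bulk_7160c5 the differences were 1.52 for Ctla4, 0.92 for Pdcd1 and 0.43 for Pdcd1lg2. In liver- and heart-free libraries 0 members were called (0.0% of all genes), with log2 differences of 1.95 for Pdcd1lg2, 1.55 for Ctla4 and 1.44 for Pdcd1. Those libraries gave bulk_6422c5 a Pdcd1 of 0.527 CPM, within the low clones, and bulk_7160c5 a Pdcd1 of 3.49 CPM. Between high and intermediate clones edgeR called 0 of 10 members (0.0% of all genes; 2 members at an unadjusted p under 0.05) and DESeq2 called 0 (2.63% of all genes). Without the liver and heart libraries edgeR called 0 members there too (0.00559% of all genes).

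Clones that share a number in their name but differ in T cell label gave 3 comparisons of high or intermediate with low. In bulk_6499c4 (high) against bulk_6499c3 (low) Pdcd1 was 1.03 against 0.445 CPM, a log2 difference of 1.21, and Ctla4 differed by 1.08. For bulk_6556c4 (high) and bulk_6556c3 (low) the differences were 0.88 for Pdcd1 and 0.78 for Ctla4. Clone bulk_6422c5 (intermediate) exceeded bulk_6422c1 (low) by 1.20 for Pdcd1, 1.81 for Ctla4 and 1.78 for Pdcd1lg2. Cd3e differed in the same direction in the 3 pairs, by 0.62, 0.84 and 1.35. Cd274 went opposite ways, -1.85 in the first pair, 1.73 in the second and -0.01 in the third. Pdcd1 differed by 1.76 and 1.47 and Cd274 by -1.74 and 1.95 in the first and second pair when liver- and heart-free libraries were used. With all libraries, the clones bulk_7160c2 (high) and bulk_7160c5 (intermediate) were the top pair of all 16 for Pdcd1, Ctla4 and Pdcd1lg2, with differences of -0.20, -0.52 and -0.73 between them. In liver- and heart-free libraries these differences were 0.12, -0.64 and -1.42, so the sign turned for Pdcd1. Each pair is 1 clone against 1 clone, so these values have no replicate check.

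Pdcd1 and Ctla4 rose with Cd3e within T cell phenotypes, and the other 8 members were not called. Within phenotypes, the change of a member per doubling of Cd3e was fitted over the 16 clones, where 1 means in proportion and 0 means no relation. Pdcd1 rose by 0.79 (SE 0.13, adjusted p = 0.0153 by edgeR) and Ctla4 by 0.68 (SE 0.13, adjusted p = 0.0301) per doubling of Cd3e. These were the 2 of 10 members called, beside 0.605% of all 20347 genes, of which 116 rose and 7 fell. Pdcd1lg2 had a slope of 0.76 (SE 0.17, adjusted p = 0.0566), Cd274 0.49 (SE 0.17, adjusted p = 0.208), Lag3 0.44 (SE 0.16, adjusted p = 0.239) and Btla 0.38 (SE 0.15, adjusted p = 0.279). Slopes of Tox (0.26, SE 0.20), Havcr2 (0.13, SE 0.13) and Cd160 (0.12, SE 0.19) were within 2 SE of 0. Tigit alone had a negative slope, -0.41 (SE 0.15, adjusted p = 0.250). The median slope of the members was 0.41 and that of all genes 0.01.

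Both calls depended on single clones, those with the most Cd3e among them. Without bulk_7160c2 and bulk_7160c5 no member was called by edgeR (0.0048% of all genes): the slope was 0.59 for Pdcd1 (adjusted p = 0.379), 0.37 for Ctla4, 0.48 for Pdcd1lg2 and -0.17 for Tox. Without these clones and the liver and heart libraries 0 members were called as well (0.00536% of all genes). Pdcd1 lost its call when any 1 of the clones bulk_6422c5, bulk_6620c1, bulk_7160c2 or bulk_7160c5 was left out (adjusted p 0.0545 to 0.122), and was called in 18 of 24 alternatives (adjusted p 3.13e-05 to 0.379). Ctla4 lost its call without any 1 of these 4, without bulk_6499c4 or without bulk_6555c3 (adjusted p 0.0535 to 0.261), and was called in 15 of 24 alternatives (adjusted p 0.000247 to 0.681). In liver- and heart-free libraries the slope of Pdcd1 was 0.75 (SE 0.12, adjusted p = 0.0472), and it was the only member called (0.0559% of all genes). There Ctla4 had 0.66 (SE 0.15, adjusted p = 0.119), Btla 0.64 (SE 0.14, adjusted p = 0.118) and Tigit -0.14. With only the libraries that hold these transcripts, 4 members were called beside 14.8% of all genes, among them Tigit with a slope of -0.54 (adjusted p = 0.0137).

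**Figure D3:**
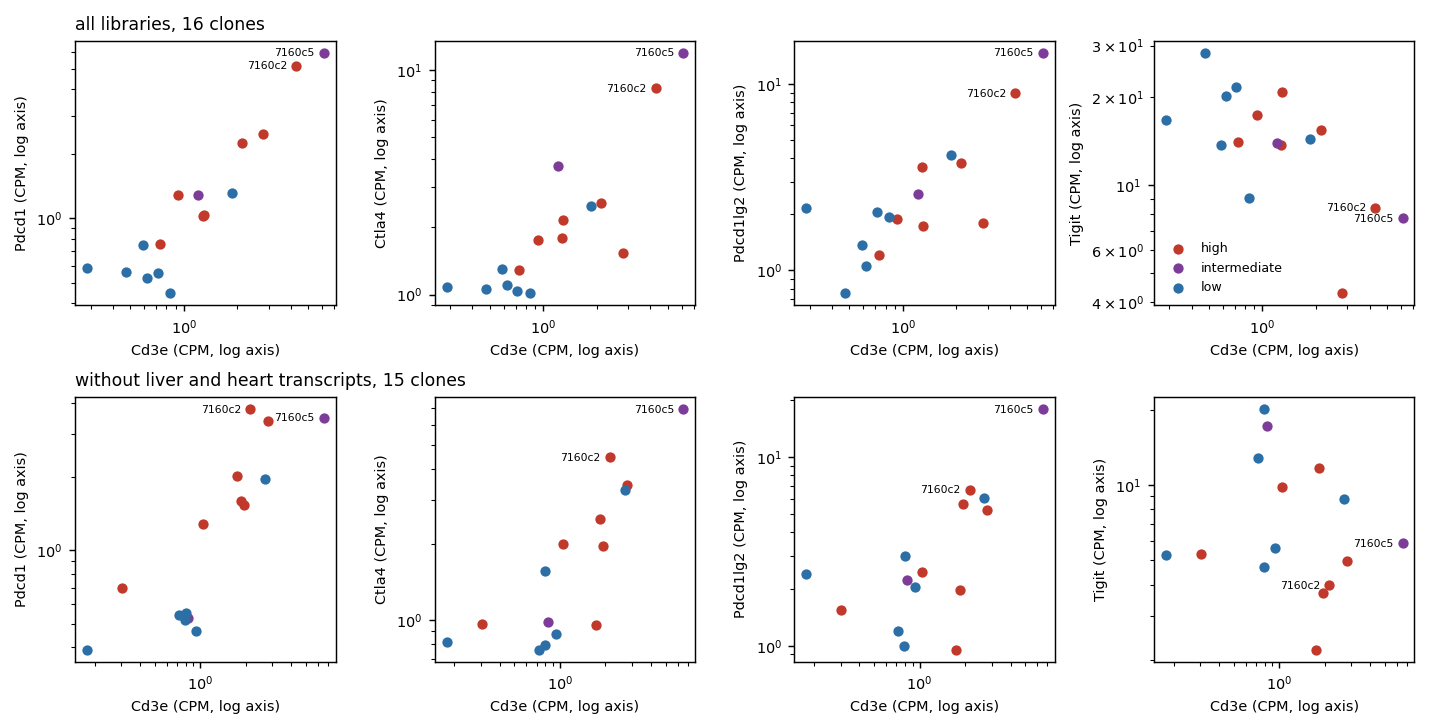
Pdcd1, Ctla4, Pdcd1lg2 and Tigit against Cd3e, both in CPM on log axes, with 1 point per clone coloured by T cell label; the upper row sums all labelled libraries (16 clones) and the lower row those without liver and heart transcripts (15 clones). Pdcd1, Ctla4 and Pdcd1lg2 go up with Cd3e towards clones bulk_7160c2 and bulk_7160c5, while Tigit is lowest among clones with much Cd3e in the upper row.

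**Figure D4:**
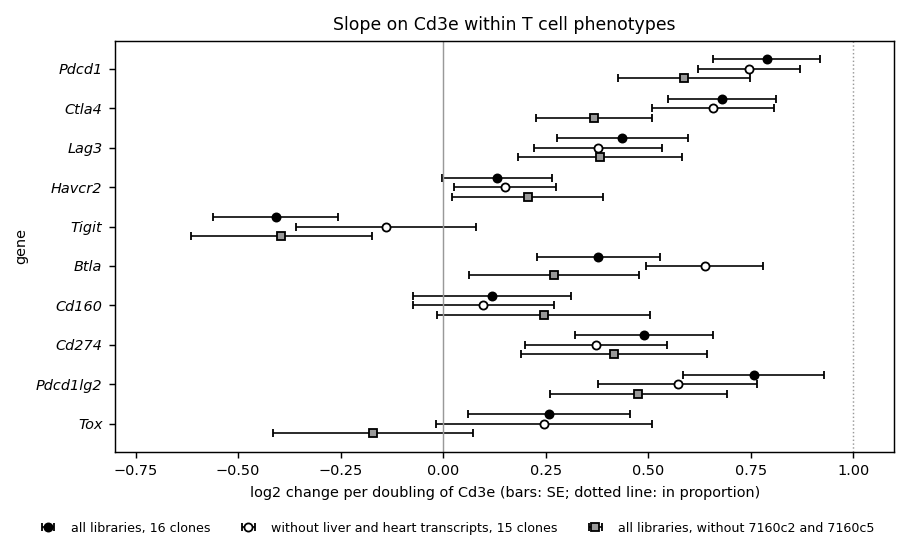
Slope of each member on Cd3e within T cell phenotypes, as log2 change per doubling of Cd3e with bars of 1 SE, for all libraries (filled circles), those without liver and heart transcripts (open circles) and all libraries without clones bulk_7160c2 and bulk_7160c5 (squares). The slope of Pdcd1 is 0.79, 0.75 and 0.59 in these settings and that of Tox changes sign to -0.17 without the clones bulk_7160c2 and bulk_7160c5.

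Genes that rose with Cd3e within phenotypes included partners of the members. With all libraries the calls on the lists stand beside 0.605% of all genes. Of the ligands and partner receptors 2 of 21 were called, the CD28 relative Icos (0.66) and the TIGIT relative Cd96 (0.94), and of the signalling genes 2 of 13, the kinase Lck (0.73) and the adaptor Sh2d1a (1.39). Nr4a1, which T cell receptor signals induce, was the 1 of 16 transcription factors called (0.52). In the interferon gamma pathway Ifng itself (1.74, SE 0.34, adjusted p = 0.0301 by edgeR) and Ciita (0.82), the switch for MHC class II genes, were called, 2 of 13. Foxp3 (0.80, SE 0.17, adjusted p = 0.0455), Il2ra (0.64) and Ccr8 (1.08) were the 3 of 7 regulatory T cell genes called. Among T cell genes 11 of 19 were called, with Cd8a at 1.36, among NK cell genes 2 of 10 (Nkg7 1.25, Klrk1 0.84), among dendritic cell genes 6 of 11 (Ccl22 0.80, Batf3 0.63) and among macrophage genes 0 of 11. The ligand genes Cd80 (0.44), Cd86 (0.23), Tnfrsf14 (0.38), Pvr (0.08) and Lgals9 (0.10) were not called. Without the liver and heart libraries the calls on these lists were 3 T cell genes, Cd3d, Cd3g and Cd247, and the NK cell gene Nkg7. There 0.0559% of all genes were called. With all libraries but without clones bulk_7160c2 and bulk_7160c5, 1 of 20828 genes was called (0.0048%), so at most 1 of the calls on these lists remained.

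Whether members differed between phenotypes beyond Cd3e was read from the ratio of each gene to Cd3e. On the log2 scale, with no correction for length, the ratio of Pdcd1 to Cd3e had a median of -0.14 over the 34 tumours. Over clones that ratio was -0.33 to 0.46 in high and -0.92 to 1.03 in low clones, and its fitted difference was 0.07 (SE 0.62) by limma. Ctla4 had -0.39, Pdcd1lg2 -0.61, Lag3 -0.74, Tox -0.88 and Btla -0.94. The most negative were Cd274 (-1.26, SE 0.55, adjusted p = 0.0572), Cd160 (-1.31), Havcr2 (-1.32, SE 0.57, adjusted p = 0.0571) and Tigit (-1.71, SE 0.57, adjusted p = 0.0555). By limma 0 of 10 members were called, 4 had an unadjusted p under 0.05, and 0.349% of all genes were called, each of them lower in high clones. Since every ratio holds the same Cd3e values, all genes shared a median of -1.24, below that of the members (-0.91). The median of the T cell list was -0.33.

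Without the liver and heart libraries 0 members were called on the ratio to Cd3e by limma (0.112% of all genes; 1 member at an unadjusted p under 0.05). There the difference was 0.61 for Pdcd1, -0.04 for Ctla4, -0.06 for Btla, -1.0 for Havcr2, -1.04 for Cd274 and -1.51 for Tigit, beside a median of -0.83 over all genes and -0.54 over the members. Over the alternatives the adjusted p ran from 0.0180 to 0.503 for Cd274, 0.0168 to 0.503 for Havcr2 and 0.0163 to 0.503 for Tigit. In the main comparison Tigit per Cd3e was 2.91 ± 1.53 log2 units in high and 4.66 ± 1.13 in low clones (SD, n = 7 each).

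Within clones, 3 members differed between libraries with and without liver and heart transcripts. Tigit was higher in the libraries with them in 14 of 15 clones (all but bulk_6422c5), by a log2 difference of 1.55 (SE 0.25, adjusted p = 3.75e-05 by edgeR). Tox was higher in 15 of 15 clones, by 0.91 (SE 0.18, adjusted p = 0.00026). Lag3 was lower in 12 of 15 clones, by -0.92 (SE 0.27, adjusted p = 0.00792). These calls, 3 of the 9 members tested, stand beside 51.3% of all genes called, so the share of members was not above that of genes at large. Cd160 did not pass the filter on low counts in this comparison. In clones bulk_2838c3, bulk_6419c5, bulk_6499c4 and bulk_6555c3 the libraries with these transcripts were the 4 nearly alike ones. The counts of clones and the p-values by edgeR treat these clones as separate replicates, so they overstate the replication.

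Pdcd1lg2 had -0.74 (SE 0.31, adjusted p = 0.0535 by edgeR, 10 of 19 alternatives called), Pdcd1 -0.37 (SE 0.40), Cd274 -0.31 (SE 0.23), Havcr2 -0.21 (SE 0.20), Ctla4 0.12 (SE 0.36) and Btla 0.01 (SE 0.26). Tigit varied widely among the libraries with liver and heart transcripts. In the 4 nearly alike libraries at 5520 to 5922 CPM of these transcripts Tigit was 33.1 to 36.4 CPM, while in the 3 libraries of this kind with the least, at 257.7 to 290.2 CPM, it was 8.09 to 11.4 CPM. The 10 libraries between, at 713.9 to 4412 CPM of these transcripts, held 7.32 to 28.3 CPM of Tigit (median 23.8), so they reached below the 3 with the least. In the 4 nearly alike libraries Cd3e was 0.505 to 0.991 CPM, Pdcd1 0.236 to 1.41 CPM and Cd274 9.60 to 11.7 CPM, in 3 libraries labelled high and 1 labelled low alike. Whether RNA of other tissue bears on the members' counts in these libraries was not tested.

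Ligands and partner receptors were called in the same comparison in both directions, 6 higher and 6 lower of 19 tested, beside 51.3% of all genes. The TIGIT ligand genes Pvr (0.28) and Nectin2 (-0.88, as Pvrl2) were called on opposite sides by edgeR, and Cd28 (0.77) and the TIM-3 ligand gene Ceacam1 (0.67) were called higher. Fgl1 (7.99) and Clec4g (6.17), LAG-3 ligand genes that the liver makes, were called higher as well. Of 12 interferon gamma pathway genes tested 6 were called, a share like that of all genes, and the 6 were lower, with Irf1 at -0.62. Tcf7 was lower too, at -0.60. Cd8a (-0.47), Cd4 (-0.18), Foxp3 (0.33) and Cd3e (-0.41) were not called.

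**Figure D5:**
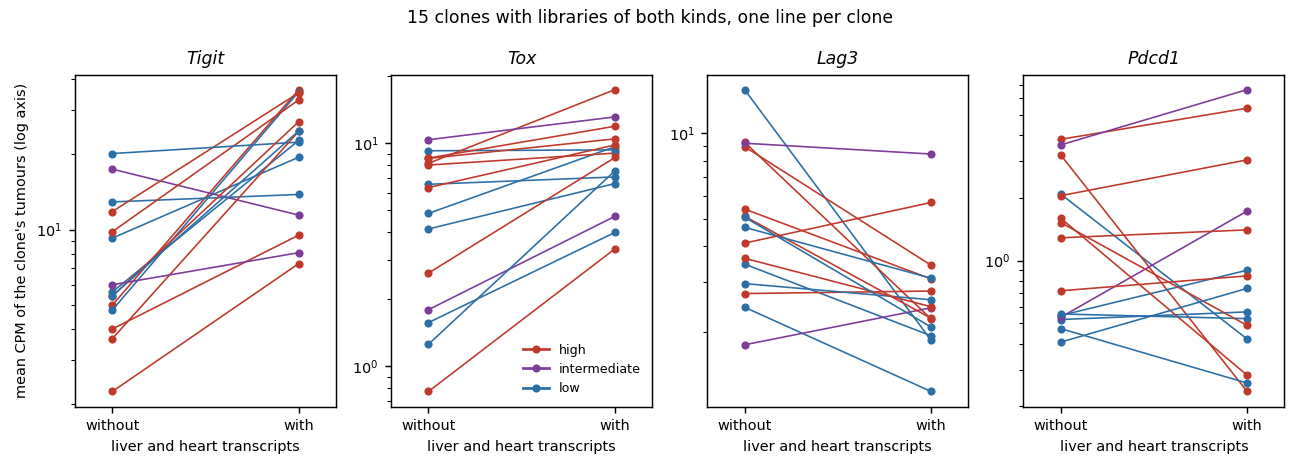
Mean level of Tigit, Tox, Lag3 and Pdcd1 in CPM (log axis) in the libraries of a clone without and with liver and heart transcripts, with 1 line per clone coloured by T cell label. Tigit goes up in 14 of 15 clones and Tox in all 15, Lag3 goes down in 12, and Pdcd1 crosses in both directions.

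Across the 15 clones without liver and heart libraries the members were ranked together by Spearman's rho, as a description over points that share libraries and depth. Pdcd1 went with Ctla4 (0.83), Btla (0.79), Cd8a (0.83) and Cd3e (0.84). Ctla4 went with Foxp3 (0.92, rank 4 among 13722 genes), Cd3e (0.86) and Pdcd1lg2 (0.81, rank 22). The PD-1 ligands were less alike, at 0.55 between Cd274 and Pdcd1lg2, and Cd274 was closer to Havcr2 (0.63) than to Pdcd1 (0.29). Lag3 had 0.69 with Pdcd1lg2. Tigit had -0.21 with Cd3e, -0.40 with Cd8a and -0.50 with Cd274, and values near 0 or weakly above it with Cd4 (0.00714), Pdcd1lg2 (0.0179) and Foxp3 (0.15).

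The genes most alike to each member were taken over the same clones. They were picked as the highest of 13722 genes (13723 for Cd160) over 15 clones. How high such picked values run for unrelated genes was not tested. For Pdcd1 they included the T cell kinase gene Zap70 (0.954) and the chemokine gene Ccl5 (0.921), and for Ctla4 they were Ccl22 (0.946), Irf4 (0.936) and Ccr8 (0.921). Cd274 was most like the chemokine genes Ccl4 (0.975) and Cxcl2 (0.957) and the receptor gene Niacr1 (0.961), and Btla was most like Pkib (0.925), Haao (0.918) and the T cell gene Cd3d (0.914). Pdcd1lg2 had Hes1 (0.889), Csk (0.871) and Ccl6 (0.868), Lag3 had Apol7c (0.925), Alpk2 (0.889) and Jun (0.882), and Havcr2 had Mapkapk2 (0.886), Creb5 (0.861) and Cotl1 (0.861). Tox had Pias4 (0.911), Tph1 (0.907) and Sema6a (0.907). For Tigit they included Zfp275 (0.818) and Dlx3 (0.779), neither of them on the T cell list. Cd160, whose mean lay under 0.5 CPM, had Osbpl9 (0.814), Il20rb (0.811) and Mir17hg (0.807).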

How the data were processed

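RNA of 37 subcutaneous tumours was extracted and sequenced as bulk libraries, per the labels' protocols. The authors deposited 1 table of raw counts per gene (39017 genes, 37607 of them found in GENCODE M21), made with STAR and featureCounts on mm10, per the submitters' processing notes, with versions and strand setting not given in the sources used here. Total counts per library ran from 7.39 to 161.7 M, so counting error weighs most on Cd160, Pdcd1 and Cd3e. Counts of the tumours of a clone were summed. The standard error (SE) of an edgeR log2 difference or slope is its size divided by the square root of the quasi-likelihood F. Member levels are CPM of TMM-scaled library sizes, and sums of liver and heart genes are CPM of total counts. The 3 tumours without a T cell label entered no comparison. Genes were filtered by filterByExpr, scaled by TMM and tested with edgeR 4.0.16 (quasi-likelihood, two-sided) and, for ratios to Cd3e, limma 3.58.1 with trend on log2 CPM with a prior count of 2, in R 4.3.3. P-values were adjusted over all genes by Benjamini-Hochberg, with a threshold of 0.05. Fits were tested on simulated data. Libraries in which Cps1, Serpina3k, Myh6 and Myh7 summed to over 10 CPM were taken as holding liver and heart transcripts. DESeq2 1.42.0, limma-voom, other scalings, no filter, tumours as replicates, other T cell genes in place of Cd3e and each clone left out were the alternatives. The members, gene lists and alternatives were chosen with earlier results of these data known. Named were all members, Cd3e, list genes that were called, a fixed set of ligands, receptors and marker genes, and, per member, the 3 genes with the highest Spearman rho among those with a mean of at least 0.5 CPM. Some genes that this rule covers are not reported here.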

Additional observations from a re-analysis of the deposited data

Results flagged for a closer look

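In each of 40 groups of 6 or 7 clones, the highest and the lowest clone were compared with the rest of the group by Dixon's criterion. The groups were 1 per member, phenotype (high or low) and set of libraries (all, or liver- and heart-free). Chance passes this criterion in about 1 of 20 separate groups of normally distributed values. CPM was used without logs and the groups share clones and libraries, so that rate need not hold here. With all libraries, high clone bulk_7160c2 stood far above the other high clones for Pdcd1 (5.15 CPM, the next being 2.47), Ctla4 (8.30, next 2.55) and Pdcd1lg2 (8.90, next 3.77). With the liver- and heart-free libraries it did not pass the criterion for any of them. There it had 3.79 CPM of Pdcd1 (next 3.38), 4.47 of Ctla4 (next 3.45) and 6.70 of Pdcd1lg2 (next 5.66). The intermediate clone bulk_7160c5, whose name shares its number, was higher still for the same 3 genes with all libraries. With the liver- and heart-free libraries its Pdcd1, at 3.49 CPM, was below that of bulk_7160c2.

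Low clone bulk_2669c4 stood above the other low clones for Pdcd1 (1.31 CPM, next 0.748), Ctla4 (2.47, next 1.30), Pdcd1lg2 (4.15, next 2.16) and Lag3 (8.21, next 3.68). With the liver- and heart-free libraries it did so for Pdcd1 (1.96, next 0.554), Ctla4 (3.28, next 1.57) and Lag3 (12.9, next 5.04). It also had the most Cd3e of the low clones, 1.86 CPM with all libraries. For Btla, clone bulk_6419c1 was high among low clones with all libraries (1.94 CPM, next 1.21), and bulk_6694c2 was low among them without the liver and heart libraries (0.321 CPM, next 0.907).

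Of the 3 tumours with no T cell label, the tumour of clone bulk_6883c4 had 35.7 CPM of Btla, against a highest value of 4.07 in the 34 labelled tumours. It also had 6.81 CPM of Pdcd1 (labelled maximum 6.62) and 1.20 CPM of Cd160 (labelled maximum 0.789). As shares of total counts, the B cell genes Ms4a1 and Cd79a were at 38.4 and 40.4 CPM there, against labelled maxima of 0.870 and 1.63. Cd3e was at 13.1 and Cd8a at 31.1 CPM, against 6.74 and 6.50. The tumour of clone bulk_6883c1 had 0.829 CPM of Cd160. The part of B cells or T cells in these values was not tested.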

How the results depend on the processing

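Of the 49 member values followed over the alternatives, 36 kept their sign throughout and 13 changed it in at least 1 setting. Over all values and settings, 990 kept their direction and their side of the threshold, 56 passed the threshold anew, 15 no longer passed it and 50 changed direction. Between high and low clones, and between high and intermediate clones, 0 members were called under every alternative run. The share of all genes called there was at most 0.414% and 2.63%. Leaving out each clone in turn gave 0 to 3 called members for intermediate against low clones (0.0% to 2.81% of all genes). It gave 0 to 3 for the slope on Cd3e (0.0446% to 1.95%) and 0 to 4 for the ratio to Cd3e (0.0695% to 81.8%). For libraries with against without liver and heart transcripts it gave 3 to 4, beside 46.7% to 53.8% of all genes.

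For intermediate against low clones, the number of members called was 3 with DESeq2, 1 with tumours as replicates (2.26% of all genes) and 1 with limma-voom. Correlations of deviations between tumours of other clones ran from -0.62 to 0.86 (median 0.37) for the same tumour number, against a median of -0.46 for other numbers. The number goes with the kind of library, and the labels do not say that it marks a shared litter, batch or day, so it was not taken as a pairing. With number 1 against later numbers as a replicate block, a split nearly the same as the kind of library, 3 members were called for intermediate against low clones (4.45% of all genes). In the same setting 0 were called for high against low (0.414%) and high against intermediate clones (0.0914%). For the slope on Cd3e, 5 members were called without phenotype terms (5.26% of all genes), 4 in the libraries with liver and heart transcripts, 1 in those without and 0 without clones bulk_7160c2 and bulk_7160c5, an alternative chosen after seeing the data, with either set of libraries. For the ratio to Cd3e, 3 were called with Cd3d, Cd3e and Cd3g summed (51.7% of all genes) and 5 in the libraries with liver and heart transcripts (66.9%). With a clone left out, the ratio called 2 to 4 members without bulk_2669c4, bulk_6422c5, bulk_6555c3, bulk_6620c1 or bulk_7160c5 (57.8% to 81.8% of all genes) and 0 without any other clone. The causes were not tested.

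Changes of sign were mostly of values near 0. Cd274 between high and low clones was -0.0062 with DESeq2's size factors, -0.0047 without a filter, -0.0065 with DESeq2, -0.0837 with tumours as replicates, -0.0821 with the replicate block, -0.0654 with limma-voom, -0.0781 without and -0.11 with only the liver and heart libraries, and -0.17 to 0.21 with a clone left out. With a clone left out, Havcr2 there ran from -0.20 to 0.0584 and Cd160 from -0.30 to 0.0837. Cd160 was 0.31 without the liver and heart libraries and Btla -0.18 with only those. Against low clones, intermediate clones had -0.055 for Cd274 and 0.27 for Tigit without the liver and heart libraries, and leaving out a clone gave -0.67 to 1.11 for Cd274, -0.68 to 1.33 for Lag3 and -0.67 to 1.12 for Tox, the lowest without bulk_7160c5. The slope was 0.0482 for Tigit without bulk_7160c2, bulk_7160c5 and the liver and heart libraries and -0.17 for Tox without bulk_7160c2 and bulk_7160c5. The ratio of Pdcd1 to Cd3e differed by -0.68 in the libraries with liver and heart transcripts and by -0.0603 to 0.23 with a clone left out. Between kinds of library, Btla was -0.0219 without a filter, and with a clone left out Btla ran from -0.19 to 0.11 and Ctla4 from -0.11 to 0.35.

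The low counts of Cd3e, Pdcd1 and Cd160, the 2 intermediate clones and the tie between tumour number and kind of library limit what these data can resolve.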

Other observations

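The 3 tumours that the labels put in no group differed in their inhibitory receptors. They also differed in kind of library: those of bulk_6883c1 and bulk_6883c4 held liver and heart transcripts and that of bulk_7062c3 did not. The tumour of clone bulk_7062c3 had 0.272 CPM of Pdcd1, 0.884 of Ctla4, 0.714 of Btla and 0.510 of Cd3e, values near the low end of the labelled tumours, with 34.3 CPM of Cd274 and 14.3 of Havcr2. That of bulk_6883c1 had 5.28 CPM of Pdcd1, 2.93 of Ctla4, 4.66 of Lag3, 3.80 of Btla and 6.08 of Cd3e. That of bulk_6883c4 had 14.8 CPM of Tox, 10.5 of Tigit, 5.95 of Lag3 and 4.17 of Ctla4, with 12.2 CPM of Cd3e. On the log2 scale the ratio of Pdcd1 to Cd3e was -0.87, -0.20 and -0.84 in these tumours, within the span of the labelled tumours (-2.02 to 1.18). The ratio of Pdcd1lg2 to Cd3e was 2.51 in bulk_7062c3, -1.33 in bulk_6883c1 and -2.71 in bulk_6883c4, and the latter pair lay below every labelled tumour (lowest -0.95).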
